A study of Mus musculus with 6 samples.

Results

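The genes described here encode the zinc-dependent proteases of the extracellular matrix and cell surface and their tissue inhibitors. They comprise the matrix metalloproteinases (MMPs), the ADAM and ADAMTS proteases, the ADAMTS-like proteins, the procollagen protease gene Bmp1 and the TIMP inhibitors. They were chosen by symbol, as every gene whose name starts with Mmp, Adam, Adamts, Adamtsl or Timp followed by a digit, together with Bmp1. By this rule 84 of the 19935 genes on the arrays were members, made up of 22 MMP, 34 ADAM, 18 ADAMTS, 5 ADAMTSL and 4 TIMP genes and Bmp1. No filter on low values was applied, so all 84 entered the fits. Of 86 protein-coding genes of these names in RefSeq (GRCm38.p6), Adamts2 and Mmp15 had no row of their own and were not analysed here.

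The cells were primary keratinocytes of wild type CD1 mice. They were kept in a low-calcium medium and given a retrovirus, and total RNA was read on 6 single-colour arrays. In the caNFATc1 group (n = 3) the virus carried a human NFATc1 with a mutated autoinhibitory domain, which makes it constitutively active. In the vector control group (n = 3) it carried the empty MSCV vector. The labels do not give the age of the mice, the time after infection or the share of cells that carried the transgene. Rcan1, a known NFAT target, differed by 3.38 (log2) between the groups, whereas the row for mouse Nfatc1 differed by 0.04, and whether that row sees the human transgene was not tested. The deposited values are log2 values relative to each row's own median over the 6 arrays, so they give differences between arrays and no levels. The labelled cell type could therefore not be checked by the level of its markers.

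MMPs are made as inactive precursors, are switched on by removal of their propeptide, and together cleave most proteins of the matrix. ADAMs sit in the membrane and release growth factors and receptors from the cell surface, while ADAMTS proteases are secreted and cut proteoglycans and procollagens. TIMPs bind the active site of these enzymes. In epidermis such proteases act when keratinocytes migrate over a wound and when ligands of the EGF receptor are released from the surface.

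Few of these genes differed between caNFATc1 and vector control cells. The comparison asks which transcripts differ when NFATc1 is active. Without the replicate number in the fit, limma called 0 of 84 members higher and 0 lower at an adjusted p under 0.05, against 0.206% of all genes higher and 0.01% lower. At an unadjusted p under 0.05 there were 7 members (8.33%), against 12.7% of all genes. Arrays of equal replicate number deviated together, and with that number as a block 4 members (4.76%) were higher and 2 (2.38%) lower. Over all genes the block gave 3.73% higher and 2.38% lower, so the members were called at about the rate of all genes. Those higher were Adamts15, Adam12, Mmp28 and Adamtsl4, and those lower were Timp1 and Adamts5. Every call of a member thus rests on this pairing of the arrays. In what follows the standard error (SE), the 95% confidence interval and the adjusted p come from limma with the replicate block unless the text says otherwise, with n = 3 pairs. Fits that leave out a replicate number of both groups rest on fewer pairs. Calls kept, lost or added in them are therefore weak.

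**Figure D1:**
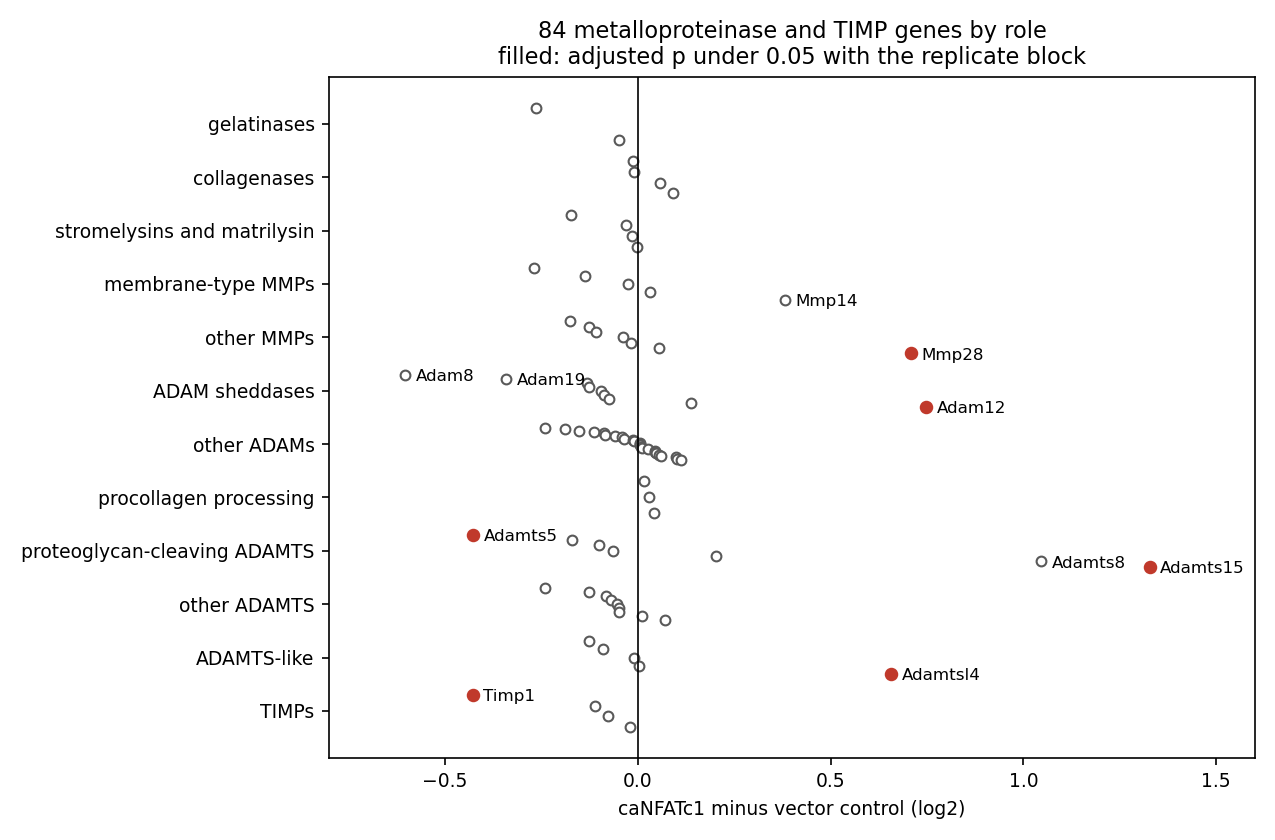
Log2 difference, caNFATc1 minus vector control (x axis), of each of the 84 genes, grouped by role (y axis, heights within a role only separate the points). Filled points passed the test with the replicate block. They are Adamts15, Adam12, Mmp28 and Adamtsl4 on the right and Timp1 and Adamts5 on the left, while 69 points lie within 0.2 of zero.

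Most members lay close to zero. For 69 of 84 (82.1%) the difference was no larger than 0.2 on the log2 scale, against 77.3% of all genes. The median difference was -0.03 over the members and -0.01 over all genes, and 32 members were positive and 52 negative. In pairs 1, 2 and 3 the members' median was -0.11, 0.01 and 0.01, against -0.06, 0.02 and 0.01 for all genes. The 2 members at or above 1, Adamts15 and Adamts8, made up 2.38% of the group, against 0.943% of all genes. No member reached -1, which 0.171% of all genes did. In all 3 pairs 16 members (19.0%) were higher and 22 (26.2%) lower, against 21.6% and 21.3% of all genes. The same sign in every pair is thus common and sets no gene apart. All 3 caNFATc1 arrays lay above all 3 vector control arrays for 10 members (11.9%) and below them for 12 (14.3%), against 9.64% and 9.09% of all genes. Of the 10 above, Adamts15, Adamts8, Adam12 and Adamtsl4 differed by 0.66 or more. The other 6 were Adam4, Adam18, Mmp1a, Adam26a, Adam6b and Adam39, and they differed by 0.05 to 0.11. Of the 12 below, Adam8, Adam19 and Adamts13 differed by -0.24 or further, and the other 9 by -0.15 (Adam21) to -0.09 (Adam23).

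The secreted proteoglycan-cleaving ADAMTS genes held the largest rise in the family. Adamts15, whose product cuts the large hyaluronan-binding proteoglycans, read -0.14, -0.49 and -0.81 in vector control replicates 1, 2 and 3. The caNFATc1 values were 1.93, 0.46 and 0.14. Every caNFATc1 array was above every vector control array, and replicate 1 was the highest in both groups. Adamts15 rose 2.51-fold (log2 difference 1.33 ± 0.23 SE, 95% interval 0.76 to 1.90, adjusted p = 0.035, and 0.329 without the block). The pair differences were 2.08, 0.95 and 0.96, so pair 1 stood above the other pairs. Without replicate 1 of both groups Adamts15 differed by 0.95 (adjusted p = 0.012 with the block).

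Adamts8, a protease of the same kind, had the next largest difference but did not pass. Its vector control values were -0.26, -0.42 and -0.45, and its caNFATc1 values 0.35, 0.26 and 1.38. The groups did not overlap, and caNFATc1 replicate 3 stood far above its fellow arrays. The difference was 1.05 ± 0.24 (interval 0.44 to 1.65, adjusted p = 0.0678), with 0.62, 0.68 and 1.84 in the pairs. Without replicate 3 of both groups Adamts8 differed by 0.65 and passed (adjusted p = 0.0123 with the block). The array that read highest thus differed between Adamts15 (replicate 1) and Adamts8 (replicate 3).

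Adamts5, which encodes the main aggrecan-cleaving enzyme of mouse cartilage, went the other way. It read -0.16, 0.21 and 0.57 in vector control cells and -0.43, -0.39 and 0.16 in caNFATc1 cells. The groups overlapped, but within each pair the caNFATc1 array was lower, by 0.27, 0.60 and 0.41. Adamts5 fell by 0.43 ± 0.08 (interval -0.63 to -0.22, adjusted p = 0.0455). This call lay close to the threshold and was lost without replicate 2 (adjusted p = 0.167) or 3 (0.0893) of both groups, with the array medians subtracted (0.0566) and with quantile normalization (0.0884), each with the block.

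Adamts4, the other well known aggrecan-cleaving enzyme, differed by 0.20 ± 0.10 and did not pass (adjusted p = 0.325). Adamts1, a protease of versican and aggrecan, read 0.69, -0.49 and 0.31 in vector control cells and 0.88, -0.56 and -0.31 in caNFATc1 cells. The replicate numbers separated these arrays more than the groups did. Its difference was -0.17 ± 0.16 (interval -0.55 to 0.22). The 2 others of this role, Adamts9 and Adamts20, differed by -0.06 and -0.10. Of the 7 genes of this role 1 rose and 1 fell, and the median was -0.06.

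**Figure D2:**
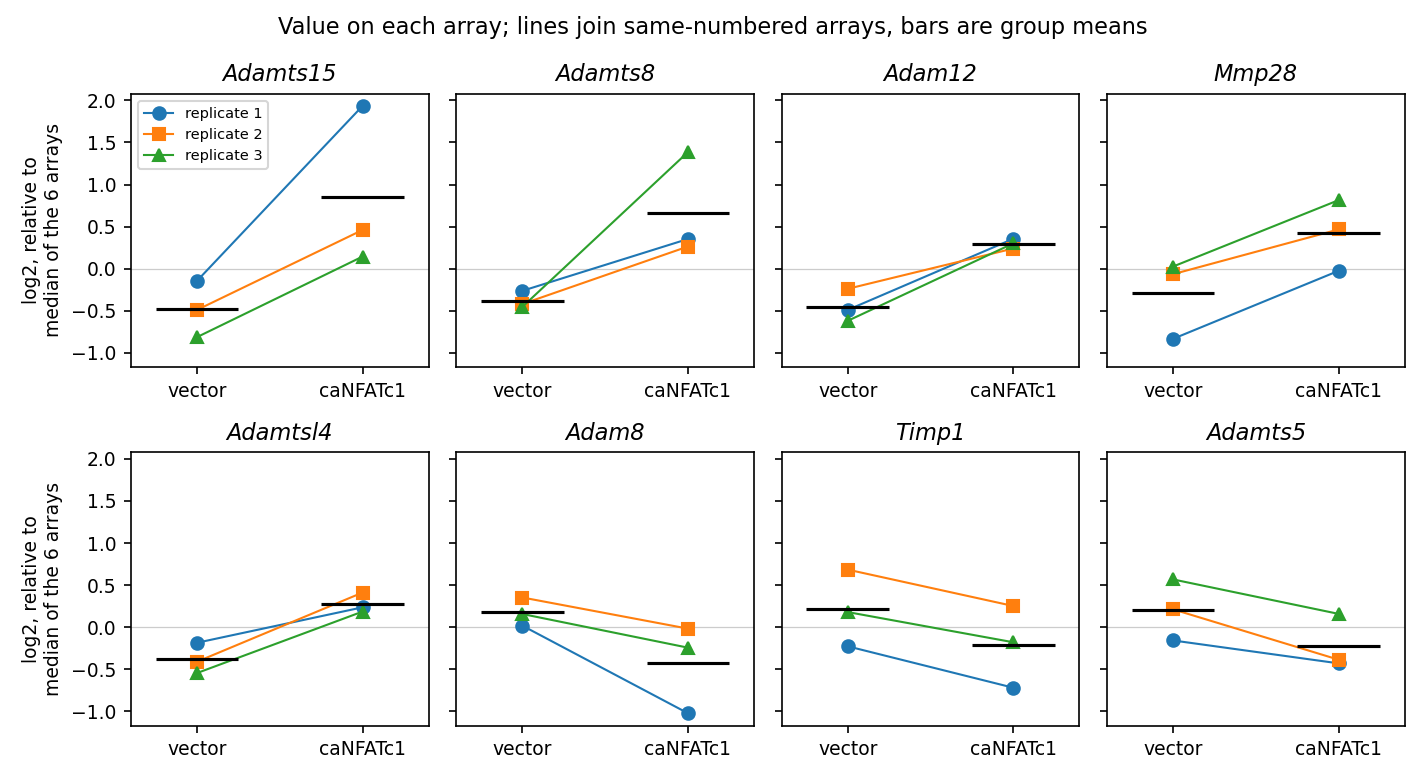
Log2 value on each of the 6 arrays, relative to the median of the 6, for 8 genes (y axis), with vector control on the left and caNFATc1 on the right of each panel. Lines join arrays of the same replicate number and bars are group means of 3 arrays. For Timp1, Mmp28 and Adamts5 the lines run nearly parallel while the groups overlap.

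The remaining ADAMTS genes and the procollagen proteases lay near zero. Of 9 other ADAMTS genes 0 passed, and their differences ran from -0.24 to 0.07 with 7 negative. The most negative, Adamts13, the protease of von Willebrand factor, read 0.16, 0.12 and 0.03 in vector control cells and -0.03, -0.27 and -0.11 in caNFATc1 cells. Its groups did not overlap, yet the difference of -0.24 ± 0.08 did not pass (adjusted p = 0.137). Bmp1, which removes the carboxyl propeptide of fibrillar procollagens, differed by 0.04 ± 0.09 (interval -0.17 to 0.26), and Adamts14 and Adamts3, which remove the amino propeptide, by 0.03 and 0.02. Adamts3 was read by 16 rows whose differences ran from -0.10 to 0.19, with 10 positive and 6 negative.

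Among the ADAMTS-like genes, whose products resemble ADAMTS proteins but lack the protease domain, 1 of 5 rose. Adamtsl4, which binds fibrillin microfibrils, read -0.19, -0.41 and -0.54 in vector control cells. In caNFATc1 cells it read 0.24, 0.41 and 0.19. All caNFATc1 arrays were above all vector control arrays. Adamtsl4 rose 1.58-fold (0.66 ± 0.09, interval 0.42 to 0.89, adjusted p = 0.0239, and 0.0904 without the block). The call was lost without replicate 2 of both groups (adjusted p = 0.0616 with the block) and with quantile normalization (0.0517 with the block). The other 4 ADAMTS-like genes differed by between -0.13 and 0.00.

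ADAM12 is a membrane protease that can release ligands of the EGF receptor and binds integrins. Its gene was the member closest to a call without the block. Adam12 read -0.49, -0.24 and -0.62 in vector control cells and 0.35, 0.24 and 0.30 in caNFATc1 cells, with no overlap. Adam12 rose 1.68-fold (0.75 ± 0.10, interval 0.50 to 1.00, adjusted p = 0.0203). Its adjusted p without the block was 0.0628. Without replicate 1 of both groups the difference was 0.70 and the call was lost (adjusted p = 0.058 with the block).

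Adam8 and Adam19 had the most negative differences of the ADAM genes, and neither passed. Adam8, a sheddase best known from leukocytes, read 0.02, 0.35 and 0.16 in vector control cells and -1.02, -0.02 and -0.24 in caNFATc1 cells. The groups did not overlap and caNFATc1 replicate 1 was by far the lowest array. The difference was -0.60 ± 0.14 (interval -0.96 to -0.25, adjusted p = 0.0714), with -1.04, -0.37 and -0.40 in the pairs. It passed with quantile normalization and the block (-0.57, adjusted p = 0.0261) and without replicate 3 of both groups (-0.70, 0.0461 with the block). Without replicate 1 of both groups Adam8 differed by -0.38 (0.0605 with the block). Adam19, which can release neuregulin, differed by -0.34 ± 0.07 (adjusted p = 0.0538), lower in every pair.

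The general sheddases of keratinocytes differed little. Adam10, which cleaves Notch receptors and cadherins, read 0.29, -0.11 and 0.11 in vector control cells and 0.38, -0.26 and -0.12 in caNFATc1 cells. Its difference was -0.09 ± 0.08 (interval -0.30 to 0.11). Adam17, which releases tumour necrosis factor and several EGF receptor ligands, differed by 0.14 ± 0.07 (interval -0.03 to 0.30). Adam9 differed by -0.13 ± 0.09 (interval -0.35 to 0.10). All 3 intervals include zero. Of the 9 sheddases 1 rose and the median was -0.09.

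The 25 other ADAM genes include many named for roles in sperm and egg. Of them 0 passed in either direction, and 24 lay within 0.2 of zero. Adam34l, at -0.24 ± 0.11, was the exception (adjusted p = 0.3). Several of these genes have near-identical copies, and 2 rows that the annotation gives to several genes, among them Adam4, Adam26a, Adam26b, Adam34 and Adam34l, were left out. The row shared by Gm4787 and Adam4 differed by 0.26, against 0.11 for the row of Adam4 alone. The row shared by Gm5347, Adam34l, Adam26b, Adam34 and Adam26a differed by -0.03.

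Mmp28 was the MMP gene that rose. It encodes epilysin, an MMP made by keratinocytes. Mmp28 read -0.83, -0.07 and 0.03 in vector control cells and -0.03, 0.47 and 0.81 in caNFATc1 cells. The groups overlapped because replicate 1 was the lowest in both, but the pair differences of 0.81, 0.53 and 0.79 were alike. Mmp28 rose 1.63-fold (0.71 ± 0.08, interval 0.51 to 0.91, adjusted p = 0.0139, and 0.412 without the block). With the block it also passed without replicate 1, 2 or 3 of both groups (0.0361, 0.0146 and 0.0163).

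The membrane-type gene Mmp14, whose product activates the MMP2 precursor at the cell surface, did not pass. It read 0.06, -0.57 and -0.45 in vector control cells and 0.18, 0.02 and -0.02 in caNFATc1 cells. Higher in every pair, it differed by 0.38 ± 0.10 (interval 0.13 to 0.64, adjusted p = 0.0978). Without replicate 1 of both groups Mmp14 differed by 0.51 and passed (0.044 with the block). Mmp16, another membrane-type gene, differed by -0.27 ± 0.10 (adjusted p = 0.202), and the other 3 of this role by between -0.14 and 0.03.

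The gelatinases, which degrade denatured collagen and type IV collagen, were not called. Mmp2 read 1.02, -0.03 and 0.03 in vector control cells and 0.54, -0.16 and -0.14 in caNFATc1 cells. Replicate 1 was the highest in both groups. Mmp2 was lower in every pair and differed by -0.26 ± 0.09 (interval -0.48 to -0.04, adjusted p = 0.163). Mmp9 read -0.09, 0.12 and 0.01 in vector control cells and -0.15, -0.01 and 0.06 in caNFATc1 cells. Its difference was -0.05 ± 0.07 (interval -0.22 to 0.12).

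Of the 8 collagenases, stromelysins and matrilysin 0 passed, and all 8 lay within 0.2 of zero. Mmp13, a collagenase, differed by -0.01 ± 0.07 (interval -0.18 to 0.16). Mmp10 and Mmp3, stromelysins, differed by 0.00 ± 0.06 (interval -0.16 to 0.16) and -0.03 ± 0.10 (interval -0.29 to 0.23). On the 6 arrays Mmp10 ranged only from -0.06 to 0.13, and Mmp13 from -0.04 to 0.05. Mmp11, stromelysin-3, had the largest difference of these roles, and it was lower in every pair. It read 0.52, -0.06 and 0.06 in vector control cells and 0.39, -0.22 and -0.16 in caNFATc1 cells, with replicate 1 the highest in both groups. Mmp11 differed by -0.17 ± 0.06 (interval -0.33 to -0.01) and did not pass (adjusted p = 0.199). Because the files hold no levels, whether these genes were expressed at all cannot be told.

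These MMP genes, apart from Mmp11, are also neighbours, in a run with Mmp12, Mmp27 and Mmp20. In the gene order of GRCm38.p6, Mmp13, Mmp12, Mmp1b, Mmp3, Mmp1a, Mmp10, Mmp8, Mmp27, Mmp20 and Mmp7 follow each other on chromosome 9 with 0 other protein-coding genes between them. The differences of the 10 ran from -0.13 to 0.09, with a median of -0.01 and 0 calls. The RefSeq promoter table (GRCm38.p6, 250 bases before to 50 after a start site) holds 52 of the 84 members with 57 promoters. The AP-1 motif TGANTCA, which reads alike on both strands, was found in 13 of the 57 (22.8%), against 7.81% of the 32851 promoters of the table, all of 300 bases. In the run on chromosome 9 it was found for 8 of the 10 genes, so most of the 13 matches come from this run. Mmp8 and Mmp27 lacked it, and Mmp12 and Mmp7 each had another listed promoter without it. The stretches with 20 bases on either side are shown for these 8 neighbours, with the motif in capitals, 5′ to 3′ on the gene's strand, in GRCm38.p6.
Mmp13 (chr9:7272459-7272505, plus strand): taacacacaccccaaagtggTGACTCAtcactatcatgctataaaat
Mmp12 (chr9:7347310-7347356, plus strand): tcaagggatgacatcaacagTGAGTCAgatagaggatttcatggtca
Mmp1b (chr9:7388093-7388139, minus strand): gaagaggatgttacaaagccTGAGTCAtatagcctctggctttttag
Mmp3 (chr9:7445756-7445802, plus strand): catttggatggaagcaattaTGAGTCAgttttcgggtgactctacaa
Mmp1a (chr9:7464048-7464094, plus strand): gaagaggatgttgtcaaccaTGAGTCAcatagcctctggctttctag
Mmp10 (chr9:7502259-7502305, plus strand): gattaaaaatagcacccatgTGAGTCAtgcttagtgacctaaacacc
Mmp20 (chr9:7628116-7628162, plus strand): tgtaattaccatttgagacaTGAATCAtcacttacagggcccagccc
Mmp7 (chr9:7692007-7692053, plus strand): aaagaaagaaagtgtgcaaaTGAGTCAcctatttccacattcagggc
The motif began between 35 and 95 bases before the start site in these 8 genes. The 13 members that hold it differed by between -0.34 (Adam19) and 0.09 (Mmp1b), with a median of 0.00 and 0 called in either direction. The 39 members whose listed promoters lack it ran from -0.60 to 0.71. A match is a description of the sequence and not a site shown to be bound.

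Adamts15 and Adamts8 are neighbours too, as are Adamts1 and Adamts5. Adamts15 lies next to Adamts8 on chromosome 9, and both were higher in every pair. Adamts1 lies next to Adamts5 on chromosome 16, and both differences were negative, although Adamts1 was positive in pair 1 (0.20, -0.08 and -0.63). These neighbours were picked out after their values were seen, and no test of position was made.

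**Figure D3:**
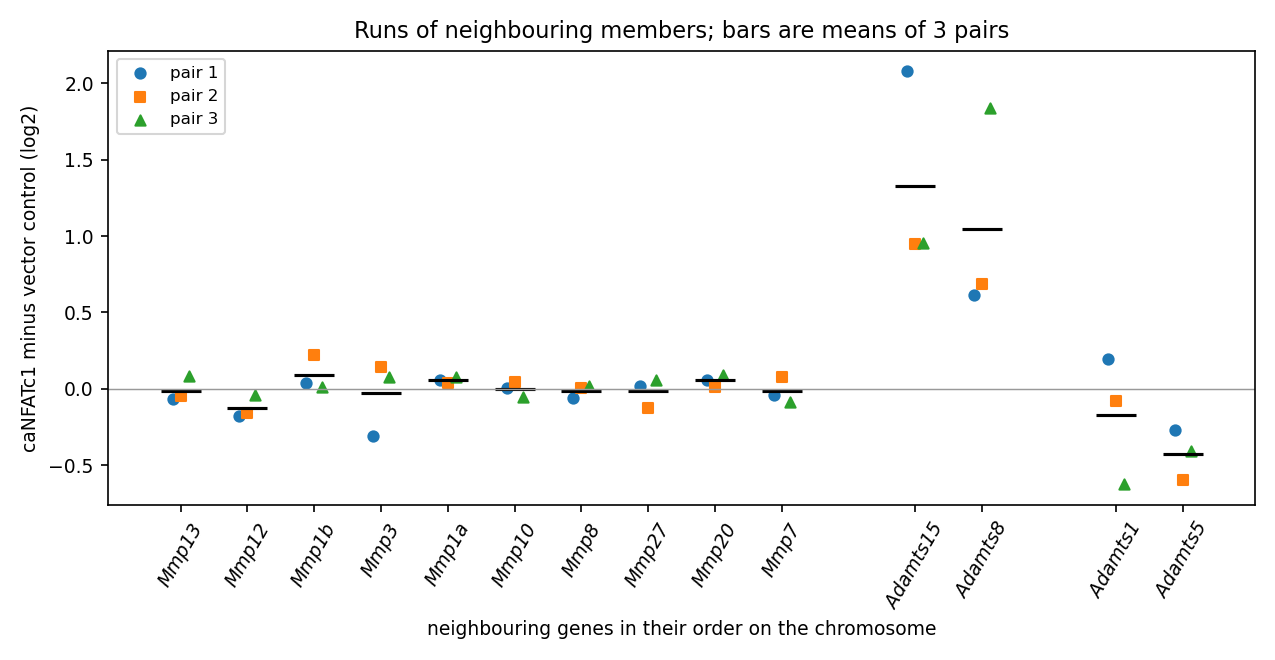
Log2 difference between same-numbered arrays (y axis) for members that are next to each other on a chromosome, in their order (x axis), with points for pairs 1 to 3 and bars for the mean. The 10 MMP genes on the left have means between -0.13 and 0.09, Adamts15 and Adamts8 lie at 1.33 and 1.05, and Adamts1 and Adamts5 at -0.17 and -0.43.

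The TIMP genes all had negative means, and 1 of 4 fell. TIMP1, an inhibitor of most secreted MMPs, is encoded on the X chromosome. Timp1 read -0.23, 0.68 and 0.18 in vector control cells and -0.72, 0.25 and -0.18 in caNFATc1 cells. Replicate 2 was the highest and replicate 1 the lowest in both groups, so the groups overlapped. Within the pairs Timp1 was lower by 0.49, 0.43 and 0.36. Timp1 fell by 0.43 ± 0.07 (interval -0.59 to -0.26, adjusted p = 0.0278, and 0.671 without the block), which is 1.34-fold. With the block the call was lost without replicate 1 (-0.40, adjusted p = 0.0604) or 2 (-0.43, 0.097) of both groups. Replicate 1 also stood apart at Xist, the X-linked RNA that coats the inactive X chromosome. In both groups its Xist value was below those of the other replicates, by 5.97 log2 units or more. The Y-linked gene Eif2s3y read 3.00 in vector control and 3.77 in caNFATc1 replicate 1, and between -0.08 and 0.01 on the other 4 arrays. The part of this in the Timp1 result was not tested.

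Timp2, which both inhibits MMP2 and helps MMP14 to activate it, differed by -0.08 ± 0.07 (interval -0.24 to 0.09). Timp4 differed by -0.11 ± 0.08 (interval -0.30 to 0.08). Timp3, which is held in the matrix and also inhibits ADAM17 and ADAMTS proteases, read -0.10, -0.17 and 0.10 in vector control cells and -0.86, 0.34 and 0.29 in caNFATc1 cells. It was lower in pair 1 by 0.76 and higher in pairs 2 and 3 by 0.51 and 0.19. Its interval of -0.60 to 0.56 was the widest among the TIMP genes.

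The listed promoters of the called members are shown for reference, with the NFAT core motif GGAAA, searched on both strands, in capitals where it occurs. It was found in 61.3% of all promoters of the table and in 27 of the 57 member promoters (47.4%). The table holds promoters for Mmp28, Adamtsl4 and Timp1.
Mmp28 (chr11:83462991-83463290, minus strand): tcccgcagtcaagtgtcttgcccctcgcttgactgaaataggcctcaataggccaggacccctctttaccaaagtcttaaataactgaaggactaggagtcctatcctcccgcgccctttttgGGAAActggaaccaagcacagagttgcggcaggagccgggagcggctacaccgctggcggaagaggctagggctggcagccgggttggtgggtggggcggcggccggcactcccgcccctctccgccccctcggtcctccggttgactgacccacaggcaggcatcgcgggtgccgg
Adamtsl4 (chr3:95687868-95688167, minus strand): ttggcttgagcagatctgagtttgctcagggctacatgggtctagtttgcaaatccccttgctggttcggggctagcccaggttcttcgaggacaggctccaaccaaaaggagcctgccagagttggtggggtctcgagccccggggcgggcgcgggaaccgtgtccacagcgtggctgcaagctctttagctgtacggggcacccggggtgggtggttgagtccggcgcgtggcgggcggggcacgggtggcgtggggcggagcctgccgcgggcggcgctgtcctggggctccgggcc
Timp1 (chrX:20869916-20870215, plus strand): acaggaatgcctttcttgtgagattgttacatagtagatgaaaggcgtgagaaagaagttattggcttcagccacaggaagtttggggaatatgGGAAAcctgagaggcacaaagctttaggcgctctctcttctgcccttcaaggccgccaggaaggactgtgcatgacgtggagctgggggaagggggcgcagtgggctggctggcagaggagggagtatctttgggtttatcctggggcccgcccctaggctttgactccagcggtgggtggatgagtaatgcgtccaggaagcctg
Mmp28 and Timp1, which moved in opposite directions, each hold 1 match, starting 127 and 156 bases before the start site. No match occurs in these letters for Adamtsl4.

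The spread between replicate numbers was wider than the group difference for most members, as it was for most genes. A range over 3 means tends to be wider than a difference between group means, even without any effect of the replicate number. The count alone therefore does not show such an effect. For 56 of 84 (66.7%) the range of the 3 replicate-number means over both groups exceeded the size of the group difference, against 70.9% of all genes. The median range was 0.11 for the members and 0.15 for all genes. Adamts1 had the widest at 1.31, followed by Adamts15 (1.23), Timp1 (0.94), Mmp2 (0.88) and Mmp28 (0.85). Replicate 1 had the highest mean for 45 members (53.6%) and the lowest for 21 (25%), against 41.3% and 35.4% of all genes. For Adam12 and Adamtsl4 the range was 0.16 and 0.21, well below their differences.

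**Figure D4:**
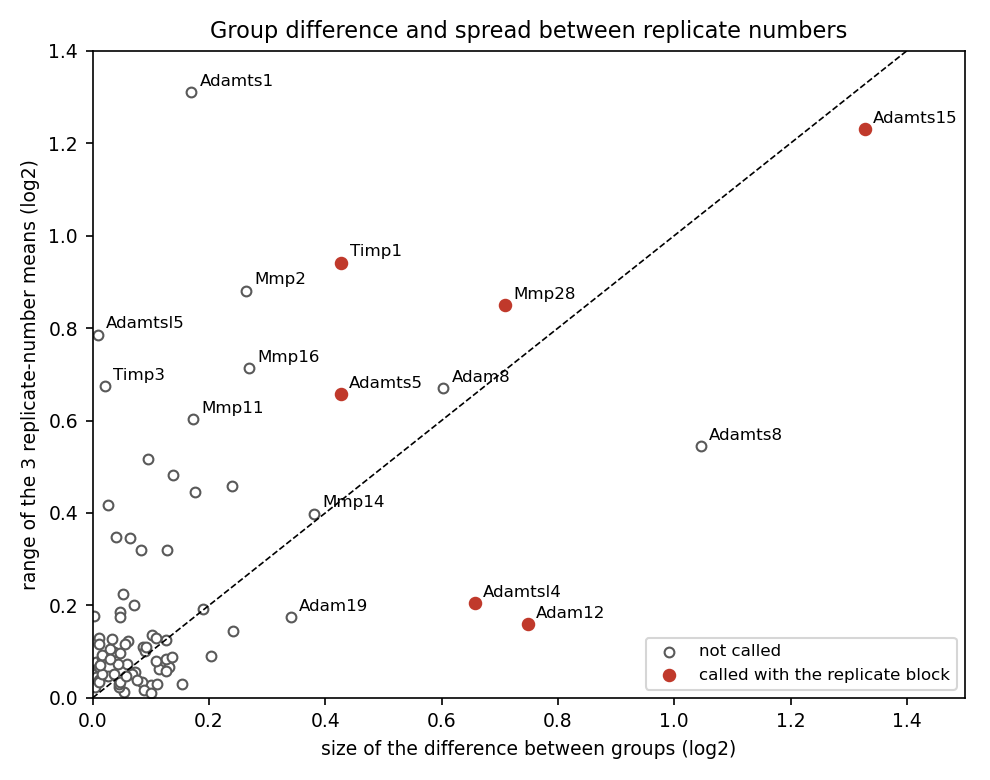
Range of the 3 replicate-number means, averaged over both groups (y axis, log2), against the size of the difference between groups (x axis, log2) for the 84 genes, with a dashed line where they are equal. Filled points passed with the replicate block. Adam12 and Adamtsl4 lie far below the line, and Timp1, Mmp28 and Adamts5 above it.

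Activators and surface regulators of metalloproteinases were read as 1 list, which also holds protease inhibitors and procollagen-processing genes. Of its 21 measured genes 0 rose and 2 fell. The differences were positive for 6 and negative for 15, with a median of -0.07. The plasminogen activator genes Plat and Plau, whose proteases start a cascade that activates MMPs, fell by 0.83 ± 0.06 (adjusted p = 0.00604) and 0.53 ± 0.09 (0.0303). The proprotein convertase genes Pcsk6 and Furin, whose proteases remove propeptides, had positive differences in every pair and no overlap of the groups. They differed by 0.83 ± 0.18 (adjusted p = 0.0551) and 0.30 ± 0.09 (0.108) and did not pass. Serpinb2, Tll1 and Lcn2 were lower in every pair, with differences of -0.80, -0.58 and -0.52. They did not pass either (0.0685, 0.0959 and 0.104). Of all genes, 21.6% were higher and 21.3% lower in every pair. Among 10 partners of ADAM10 and ADAM17, 0 rose and 1 fell, while 7 of the 10 differences were positive and the median was 0.10. The gene that fell was Tspan15, a tetraspanin that escorts ADAM10 to the surface, by 0.63 ± 0.07 (adjusted p = 0.0124), while Adam10 itself lay at -0.09. Tspan5 and Tspan17, other tetraspanin partners of ADAM10, were higher in every pair, at 0.33 ± 0.08 (0.082) and 0.28 ± 0.07 (0.0946), and did not pass. Pacsin3 was higher in every pair too, at 0.31 ± 0.09 (0.124).

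Several targets of these proteases rose. Of 28 measured surface proteins that ADAM proteases can release, 7 rose and 0 fell, with a median of 0.15. Over all genes 3.73% rose and 2.38% fell, and the median was -0.01. The differences of the 28 were positive for 18 and negative for 10, and Hbegf was the lowest at -0.37. Tnfrsf1a, a receptor for tumour necrosis factor, rose by 1.18 ± 0.07 (adjusted p = 0.00381, and 0.0113 without the block). The EGF receptor ligand gene Epgn rose by 1.43 ± 0.14 (0.00983), the heparan sulfate proteoglycan gene Sdc4 by 0.90 ± 0.07 (0.00605) and App by 0.69 ± 0.07 (0.00904). Cd44, Tnf and Jag1 rose as well, by 1.54, 1.13 and 1.06 (0.00604, 0.0154 and 0.039). Of 34 matrix substrates 4 rose and 0 fell, with a median of 0.03 and 20 differences positive and 14 negative. Those that rose were Fmod (4.56 ± 0.24, 0.00307, and 0.021 without the block), the fibrillar collagen genes Col5a2 (2.05 ± 0.19, 0.00859) and Col3a1 (1.20 ± 0.19, 0.0296), and Tnc (1.29 ± 0.21, 0.031). Acan, the substrate that names the aggrecanases, differed by 1.03 ± 0.22 and did not pass (0.0538), nor did Vcan at 0.65 ± 0.22 (0.157). These lists were drawn up with earlier results of these data known, so their counts are descriptions.

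Markers of other cell types were read beside these genes, because fibroblasts and leukocytes make several of the proteases. Of 14 fibroblast markers 2 rose, Col3a1 and Prrx1 (0.43 ± 0.08, adjusted p = 0.0376). Over all genes 3.73% rose and 2.38% fell. Their median was 0.11, with 0.01, 0.03 and 0.48 in pairs 1, 2 and 3. Among the other 12, the differences ran from -0.22 (Fbln1) to 0.83 (Pdgfra). Pdgfra, a receptor gene of fibroblasts, was higher in every pair with no overlap and did not pass (0.83 ± 0.20, adjusted p = 0.0778). Pdgfrb was higher in every pair, at 0.26, and Col1a1 differed by 0.48, with -0.16, 0.28 and 1.31 in the pairs. Col1a1, Pdgfra and Col3a1 read highest on caNFATc1 replicate 3 (1.26, 1.27 and 1.225), the array on which Adamts8 read 1.38. On that array Lum, Dpt, Fap and Thy1 read between -0.03 and 0.07. Dcn and Lum differed by 0.08 and -0.01. Vim, also on this list, read -2.98 and -2.92 in replicate 1 of the vector control and caNFATc1 groups, far below the other 4 arrays. Of 15 keratinocyte markers Trp63 rose (0.42 ± 0.08, adjusted p = 0.0444) and the median was -0.05. Their differences were positive for 5 and negative for 10, and Krt15 was the lowest at -0.58. Krt15 and Epcam (-0.26, with no overlap) were lower in every pair and did not pass (0.132 for each). Krt15 read -1.72 and -1.81 in replicate 2 of the vector control and caNFATc1 groups, far below its other 4 arrays. Dsp, also a keratinocyte marker, read -2.78 and -2.58 in replicate 3 of these groups, far below its other 4 arrays. Of 12 leukocyte, 8 melanocyte and 7 endothelial markers 0 passed, with medians of -0.03, -0.07 and -0.04. The part of other cells in the differences was not tested, and in cultures read in bulk a change in the number of cells of a type and a change in RNA per cell cannot be told apart.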

How the data were processed

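The deposited log2 values fill 28815 rows for 6 arrays. Per the submitters' processing notes, RMA was run and the build was mm8. Any software or filter beyond this is not stated in the labels. Each row had a median of 0 within 1e-06. The values are thus centred by row, no row could be called dim, and the base of the logarithm was taken as 2 because RMA gives log2 values. The number of arrays limits the precision.

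Rows with exactly 1 symbol in the platform annotation (21780) were averaged per gene, giving 19935 genes. Of the rest, 1605 rows carried several symbols, and 5430 were not listed or had no symbol. No symbol changed through the RefSeq table. Among the members, Adamts3, Adamts9, Adamts17 and Adamtsl1 had 16, 6, 5 and 2 rows, and the others 1.

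All genes were fitted with limma (version 3.58.1, R 4.3.3) by lmFit and eBayes, 2-sided, with Benjamini-Hochberg adjustment over all genes and a threshold of 0.05. The main design had group as its only term, and a second fit added the replicate number as a block. To check the pairing, each array's deviations from its group mean were correlated across genes. Arrays numbered 1, 2 and 3 gave 0.71, 0.61 and 0.57 with their partner in the other group. Pairings of unequal numbers, 6 in all, gave -0.60 to 0.18. As every partner exceeded 0.1, replicate numbers were treated as pairs. Vector control replicate 2 with caNFATc1 replicate 3, an unequal pairing, exceeded this limit too (0.18). Deviations from a mean of 3 arrays sum to zero within a group, so positive partners push unequal pairings below zero. The negative values of unequal pairings are therefore no separate evidence of pairing. The labels call the replicates biological without saying what an equal number shares. The fits were tested on simulated data.

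Members passing either fit, those with the 8 largest rises and falls and a fixed set of well known members were named, with called genes of 4 context and 5 marker lists. Members named beyond these complete a role group or a run of neighbours. Members and lists were chosen with earlier results of these data known.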

Additional observations from a re-analysis of the deposited data

How the results depend on the processing

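Without the block, 0 members were called higher and 0 lower in every setting run: leaving out each array (0 to 0) or each replicate number of both groups, quantile normalization, subtraction of array medians, the row with the highest mean for each gene, and robust eBayes. With the replicate block 4 members were higher and 2 lower. With the block and either the row with the highest mean or robust eBayes, all 4 and 2 of these genes were called again and no other member was. With the block and array medians subtracted 4 were higher and 1 lower, Adamts5 being lost. With the block and quantile normalization 3 were higher and 2 lower, of which 3 and 1 were among those called with the block alone, with Adamtsl4 and Adamts5 lost and Adam8 added. Leaving out replicate 1, 2 or 3 of both groups with the block gave 3 to 5 members higher and 0 to 2 lower, with Mmp14 added without replicate 1 and Adamts8 and Adam8 without replicate 3. Adamts15 and Mmp28 passed in all of these settings with the block. Over all genes the fit without the block called 41 higher and 2 lower, which became 149 and 20 with quantile normalization. Leaving out 1 array gave 0 to 74 higher and 0 to 9 lower, and without vector control replicate 3 both counts were 0. Of the named members, none of the 6 called changed sign in any setting. Among the uncalled members, the sign changed 42 times, counting each gene and setting. With 3 arrays a group and no levels, small changes of dim genes cannot be judged.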
